A study of Homo sapiens with 6 samples.

Results

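The genes described here carry glucose into the cell, break it down to pyruvate and lactate, and answer low oxygen. The list held 37 genes, chosen by name and with earlier results of these data known. Their probes were found through the gene symbol in the array's platform annotation. The list matched 45 of the 22184 probes on the array, which read 34 of the 37 genes. PGAM1, SLC16A3 and CA9 had no probe under their symbol in that annotation and were not analysed here. RNA came from SH-SY5Y, an established human neuroblastoma line with features of sympathetic neuroblasts, grown in DMEM/F12 medium with fetal bovine serum. 3 arrays (Illumina bead arrays) held RNA from cells given the solvent dimethyl sulfoxide (DMSO) and 3 held RNA from cells given atrazine, a chlorotriazine herbicide. The sources used here give neither the dose nor the length of exposure. Nothing in the labels states that the numbered replicates were separate cultures, so each p-value rests on a spread between samples that may be technical.

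In glycolysis, hexokinases trap glucose as glucose 6-phosphate, phosphofructokinase makes the committed step, and pyruvate kinase makes pyruvate, which either becomes lactate or enters mitochondria through pyruvate dehydrogenase. The transcription factor HIF-1 joins an oxygen-labile alpha subunit, encoded by HIF1A, to a stable partner, ARNT. When oxygen is present, the prolyl hydroxylases EGLN1 and EGLN3 mark the alpha subunit for destruction by the VHL ubiquitin ligase, so HIF activity is set largely at the protein level, which these arrays did not measure. Many glycolytic genes are HIF targets, as are angiogenic, pH-regulating and collagen-modifying genes.

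Values are log2 intensities after background correction and quantile normalization, which gives every array the same distribution. The arrays of the groups differed before that step: mean raw intensity was 532.2 to 939.1 units in DMSO and 235.1 to 311.3 in atrazine, and 58.9% to 59.8% of probes were above background (detection p under 0.05) in DMSO against 43.6% to 52.0% in atrazine. Atrazine replicate 2 stood apart from the other 2 atrazine arrays (r = 0.968 and 0.964 across genes, against 0.994 between those 2). Of 12 noradrenergic markers fixed for the check, 11 were on the array and 10 were above background on every array, HAND2 being the exception. Their summed level was 15.56 to 15.72 in DMSO and 14.97 to 15.01 in atrazine (log2). By the test used below, 6 of these markers were lower and 1, TH, was higher (0.95). The 5 leukocyte markers summed to 7.41 to 7.49 in DMSO and 8.84 to 8.97 in atrazine, with PTPRC above background on 0 DMSO and 3 atrazine arrays and CD3E on none. AIF1 differed most among them (4.86 against 8.14, above background on 0 DMSO and 3 atrazine arrays), while CD68 was above background on 2 DMSO and 0 atrazine arrays. The 8 mesenchymal-type markers summed to 10.59 to 10.75 and 11.72 to 12.07, with FN1 and COL3A1 above background on none. In that list 3 markers were higher and 1, SNAI2, was lower (-1.21, above background on 3 DMSO and 0 atrazine arrays). The brightest, VIM, read 9.99 in DMSO and 11.59 in atrazine. The 4 epithelial markers summed to 7.7 to 7.9 and 8.0 to 8.1, with KRT18 higher (1.13) and KRT8 lower (-0.94). The part of these differences in the results below was not tested. In bulk RNA, fewer cells of a type and less RNA per cell cannot be told apart.

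After quantile normalization the listed genes passed in both directions, as did all genes. Of the 33 genes tested, 12 were higher and 8 lower in atrazine and 13 did not pass (limma, adjusted p threshold 0.05 over all 11838 genes tested). The largest rises were those of PKM (pyruvate kinase), VEGFA (vascular endothelial growth factor), ALDOC (aldolase C) and EGLN1, and the falls included those of SLC2A1 (the glucose transporter GLUT1) and KDM3A (a histone demethylase). The 12 higher genes were 36.4% of those tested, against 27.6% of all genes, and the 8 lower were 24.2%, against 39.6%. In either direction 60.6% passed, against 67.2% of all genes, so the share that passed was close to the background. The groups did not overlap in 26 of 33 genes (78.8%), against 75.0% of all genes.

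Direction depended on how the arrays were scaled. When each array was shifted to a common median in place of quantile normalization, the median log2 change of all genes moved from -0.18 to -0.94, and 4 of the 33 genes were higher (12.1%, against 14.8% of all genes) and 21 lower (63.6%, against 69.9%), with 84.7% of all genes past in either direction. The 4 higher genes were PKM, ALDOC, VEGFA and EGLN1. Relative to the median of all genes, the listed genes had a median of 0.32 after quantile normalization and 0.31 under median scaling. All 12 higher genes lay above the median of all genes under both scalings. Of the 8 lower genes, 6 lay below it under both, and PDK1 and EGLN3 did not. After quantile normalization the side follows from the calls, since the smallest changes called were 0.48 and -0.33. A place above that median is not a rise, as GPI, PFKL, ENO2 and NDRG1 passed as lower under median scaling. Changes that turned under median scaling are given with that value below.

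**Figure D1:**
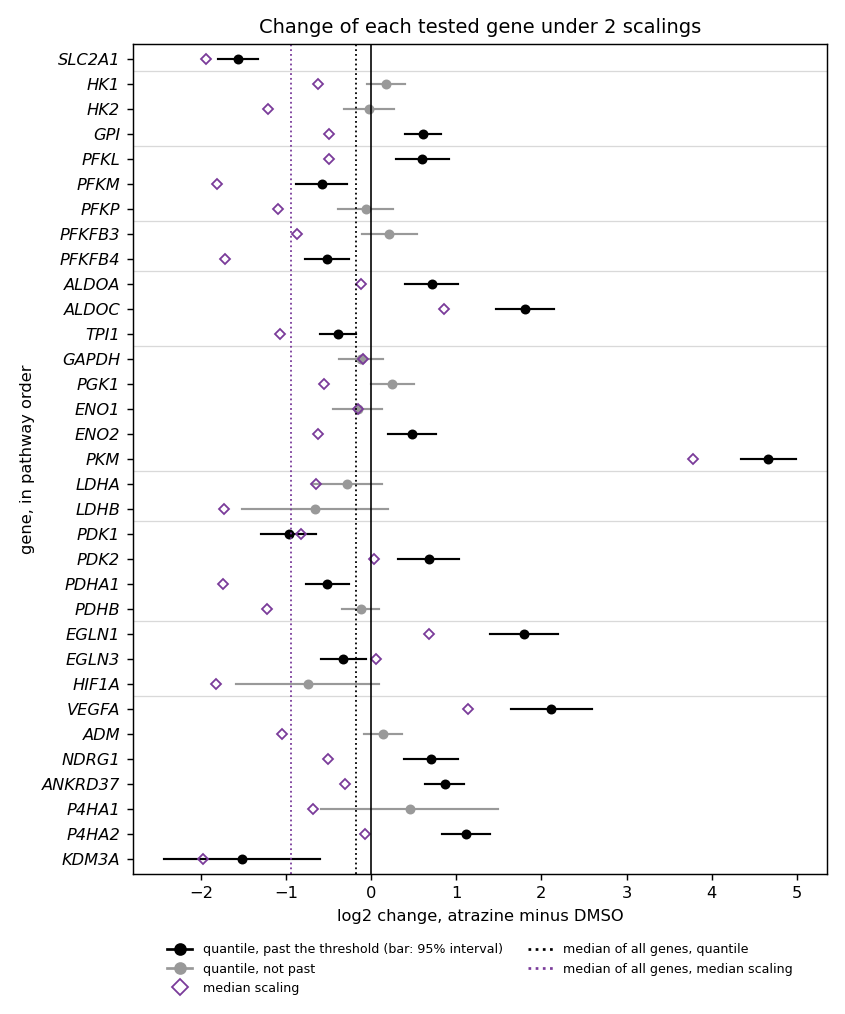
Log2 change of each of the 33 tested genes (atrazine minus DMSO, 3 arrays each), in pathway order. Circles with 95% limma intervals are quantile-normalized values (black past the threshold, grey not), diamonds are median-scaled values, and dotted lines mark the median of all genes under each scaling (-0.18 and -0.94). PKM stands far to the right under both, while most diamonds lie left of zero.

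HIF binds a core of ACGTG or GCGTG, and promoter sequence shows which of these genes carry it next to their start. The RefSeq table (GRCh38.p14) held windows of 250 bases before to 50 after the start for 34 of the 37 listed genes. Either core, on either strand, occurred in 24 of these 34 windows (70.6%), in 63.0% of the windows of 8845 tested genes and in 48.4% of all 27305. It occurred in 8 of 10 windows of higher genes, 4 of 8 of lower genes and 11 of 13 of genes that did not pass. A match is not a bound site. The 250 bases before the start are shown for 3 genes that rose under quantile normalization (ALDOC, ANKRD37 and EGLN1) and for LDHA, whose window held the most matches of ACGTG among the listed genes and which did not pass. Capitals mark the core on either strand. CACGTG reads as a match on both strands, and both were counted.
ALDOC (chr17:28576896-28577145, minus strand): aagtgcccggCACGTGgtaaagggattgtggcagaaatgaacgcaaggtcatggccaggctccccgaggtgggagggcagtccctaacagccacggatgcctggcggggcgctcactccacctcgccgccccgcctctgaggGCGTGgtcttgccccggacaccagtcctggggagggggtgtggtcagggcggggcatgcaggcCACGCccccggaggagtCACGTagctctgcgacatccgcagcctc
ANKRD37 (chr4:185396591-185396840, plus strand): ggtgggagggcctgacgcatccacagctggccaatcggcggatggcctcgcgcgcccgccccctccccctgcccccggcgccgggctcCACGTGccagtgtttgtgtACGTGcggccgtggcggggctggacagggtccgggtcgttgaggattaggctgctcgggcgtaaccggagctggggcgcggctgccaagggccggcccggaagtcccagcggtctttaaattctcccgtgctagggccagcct
EGLN1 (chr1:231422288-231422537, minus strand): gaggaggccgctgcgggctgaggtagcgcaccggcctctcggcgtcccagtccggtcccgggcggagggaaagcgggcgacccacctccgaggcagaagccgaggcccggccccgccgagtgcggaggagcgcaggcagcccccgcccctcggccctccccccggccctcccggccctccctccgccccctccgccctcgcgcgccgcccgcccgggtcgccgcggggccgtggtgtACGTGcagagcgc
LDHA (chr11:18394313-18394562, plus strand): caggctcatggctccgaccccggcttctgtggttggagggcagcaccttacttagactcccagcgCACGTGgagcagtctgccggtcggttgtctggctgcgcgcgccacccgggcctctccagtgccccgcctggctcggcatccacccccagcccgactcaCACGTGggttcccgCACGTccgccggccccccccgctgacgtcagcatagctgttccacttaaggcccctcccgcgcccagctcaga
ALDOC held 5 matches, of which the first and second overlap in CACGTG at 240 bases before the start. ANKRD37 held 3, EGLN1 held 1, at 13 bases before the start, and LDHA held 5. LDHA and ALDOC carried equal numbers in these 250 bases, with CACGTG counted on both strands, and 6 and 5 in their full windows. After quantile normalization ALDOC rose while LDHA did not pass. Whether the number of matches goes with the changes was not tested.

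At the entry to the pathway, SLC2A1 (probe ILMN_1809256), which encodes the transporter GLUT1 that supplies most cells with basal glucose, read 7.27, 7.27 and 7.15 in DMSO and 5.74, 5.71 and 5.55 in atrazine (replicates 1, 2 and 3). It was above background on 3 DMSO arrays and on no atrazine array, so only a bound holds. SLC2A1 was at least 2.52-fold lower in atrazine. The limma test on all readings, those below background included, gave adjusted p = 2.2e-05, which does not belong to the bound. SLC2A3, the neuronal transporter GLUT3, was above background on 0 of 6 arrays and was not tested. GLUT3 is typical of neurons, and no level of it could be read here.

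Of the enzymes that phosphorylate and isomerise the hexose, GPI, glucose-6-phosphate isomerase, rose after quantile normalization (1 of 3 tested, with 27.6% of all genes higher). GPI read 10.54, 10.42 and 10.53 in DMSO and 11.10, 11.09 and 11.14 in atrazine, a log2 change of 0.61 (SE 0.09, adjusted p = 0.000842). Under median scaling GPI gave -0.49 and passed as lower. The atrazine arrays lay close together and clear of the DMSO arrays. HK1, the hexokinase of most tissues and of brain, gave 0.18 (95% interval -0.05 to 0.40) on its brightest probe, and HK2, the inducible hexokinase, gave -0.02 (-0.32 to 0.27). Neither passed, and both gave lower values that passed under median scaling (-0.62 and -1.21).

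The phosphofructokinase subunits went in different directions after quantile normalization, whereas all 3 passed as lower under median scaling. PFKL, the liver-type subunit, read 7.93, 7.94 and 8.14 in DMSO and 8.42, 8.84 and 8.56 in atrazine, a rise of 0.60 (SE 0.13, adjusted p = 0.00561). Under median scaling PFKL gave -0.50 and passed as lower. PFKM, the muscle-type subunit, read 9.82, 9.83 and 9.96 against 9.20, 9.52 and 9.14, and fell by 0.58 (SE 0.13, adjusted p = 0.0053). It gave -1.81, past, under median scaling. The groups did not overlap for PFKL or PFKM after quantile normalization. PFKP, the platelet-type subunit, gave -0.06 (-0.39 to 0.26) and did not pass, but gave -1.10, past, under median scaling. PFKFB4, a bifunctional enzyme that sets the level of fructose 2,6-bisphosphate, the main activator of phosphofructokinase, fell by 0.52 (SE 0.11, adjusted p = 0.00489). Its paralog PFKFB3, which has the higher kinase activity, gave 0.21 (-0.11 to 0.53), not past, and turned to -0.87, past, under median scaling.

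Both measured aldolases rose after quantile normalization. ALDOC (probe ILMN_1755974), the brain aldolase whose promoter is shown above, read 10.45, 10.54 and 10.77 in DMSO and 12.29, 12.65 and 12.24 in atrazine, a 3.50-fold rise (log2 change 1.81, SE 0.15, adjusted p = 5.47e-05) that held under median scaling (0.86). ALDOA, the muscle and ubiquitous aldolase, read 11.84, 11.49 and 11.72 against 12.37, 12.55 and 12.26, a rise of 0.71 (SE 0.13, adjusted p = 0.00236) that turned to -0.12, not past, under median scaling. Every atrazine array lay above every DMSO array for both. TPI1, which interconverts the triose phosphates made by aldolase, fell by 0.39 (SE 0.09, adjusted p = 0.00659), from 12.92 ± 0.04 to 12.53 ± 0.05 (SD, n = 3).

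In the payoff phase, which yields ATP and NADH, 2 of 5 tested genes rose, PKM and ENO2, and 3 did not pass (27.6% of all genes rose). Under median scaling 1 rose and 2 fell (14.8% and 69.9% of all genes). PKM (probe ILMN_1672650) read 7.98, 7.75 and 8.01 in DMSO and 12.42, 12.81 and 12.50 in atrazine, 25.4-fold higher (log2 change 4.67, SE 0.14, adjusted p = 1.47e-06). It was the largest change in the list, but it was seen on that probe and not on the gene's other probe, described below. ENO2, the neuron-specific enolase used as a neuroendocrine marker, read 10.53, 10.60 and 10.68 against 10.90, 11.26 and 11.09, a rise of 0.48 (SE 0.12, adjusted p = 0.00895). Under median scaling ENO2 gave -0.63 and passed as lower. ENO1, the ubiquitous enolase, gave -0.16 (-0.45 to 0.13). GAPDH, glyceraldehyde-3-phosphate dehydrogenase, gave -0.12 (-0.38 to 0.14), and PGK1, phosphoglycerate kinase, gave 0.25 (0.0011 to 0.50, adjusted p = 0.07). GAPDH and ENO1 did not pass under median scaling either (-0.09 and -0.15), whereas PGK1 turned to -0.55 and passed. PGK1 passed under 4 alternatives with quantile normalization, for example with an intensity trend (adjusted p = 0.0369). GAPDH, ENO1, ALDOA, LDHA, LDHB, PGK1, PKM and TPI1 have processed pseudogenes in the human genome, and whether the probes also read these was not tested.

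**Figure D2:**
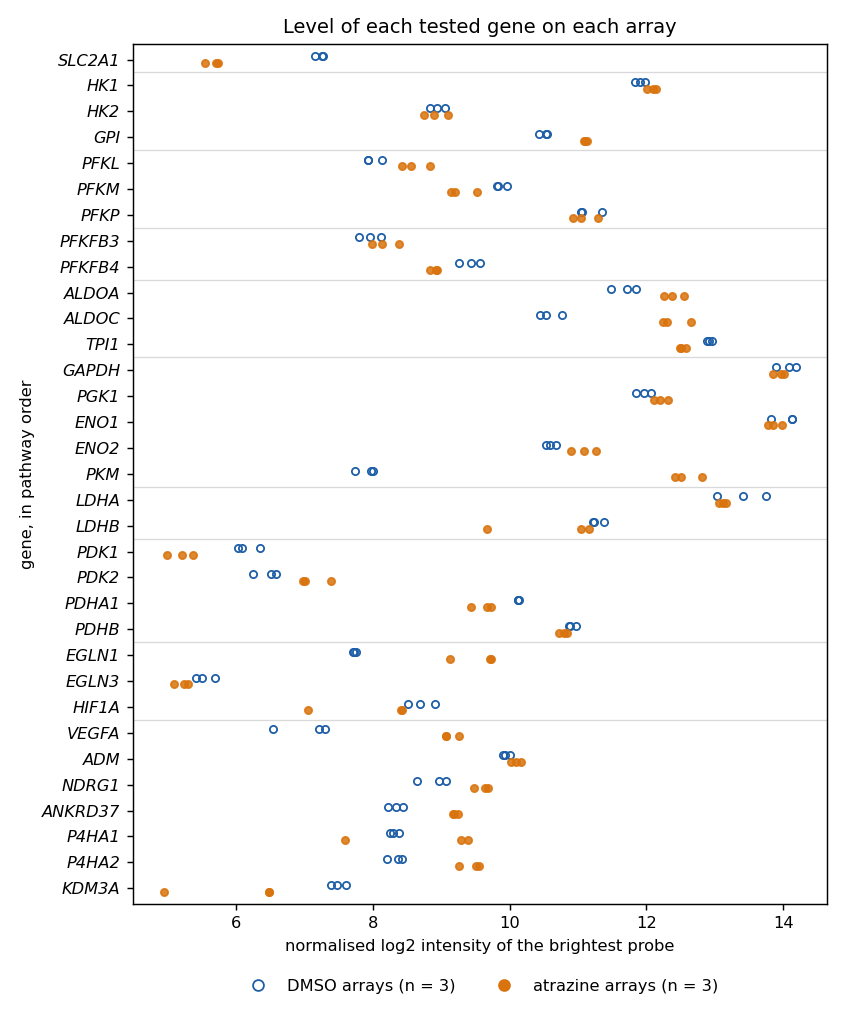
Normalised log2 intensity of the brightest probe of each tested gene on every array, with DMSO as open and atrazine as filled circles (3 arrays each), in pathway order. Rows are to be compared within a gene, not between genes. PKM shows the widest gap between groups, and 1 atrazine array lies far below the other 2 for LDHB, HIF1A, P4HA1 and KDM3A.

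At the fork of pyruvate, neither lactate dehydrogenase subunit passed after quantile normalization, and both passed as lower under median scaling (LDHA -0.65, LDHB -1.73). LDHA, the subunit that favours lactate formation, read 13.04, 13.75 and 13.41 in DMSO and 13.12, 13.16 and 13.07 in atrazine, with a change of -0.28 (-0.69 to 0.13). The DMSO arrays were spread more widely than the atrazine arrays, and without DMSO replicate 1 the change was -0.48 and passed (adjusted p = 0.0269). LDHB, the heart-type subunit, read 11.38, 11.24 and 11.22 against 11.15, 9.67 and 11.05, a change of -0.66 (-1.51 to 0.20). The low reading came from atrazine replicate 2, and without that array the change was -0.18 (adjusted p = 0.164).

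The entry of pyruvate into mitochondria showed opposite movements, after quantile normalization, of the kinases that inhibit pyruvate dehydrogenase. PDK1, a hypoxia-induced kinase of the complex, read 6.10, 6.36 and 6.04 in DMSO and 5.22, 4.99 and 5.38 in atrazine. It was above background on no atrazine array and was at least 1.21-fold lower there. The limma test on all its readings, those below background included, gave adjusted p = 0.000737. PDK2, the widely expressed kinase, read 6.52, 6.25 and 6.59 against 6.98, 7.40 and 7.01, a rise of 0.68 (SE 0.15, adjusted p = 0.00582) that shrank to 0.03, not past, under median scaling. Both kinases lay near the lower end of the detected range. PDHA1, the catalytic alpha subunit of the dehydrogenase, fell by 0.52 (SE 0.11, adjusted p = 0.00427), from 10.13 ± 0.01 to 9.61 ± 0.15 (SD, n = 3). PDHB, its beta subunit, gave -0.12 (-0.34 to 0.09) and did not pass, but gave -1.22, past, under median scaling.

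In the oxygen-sensing genes, EGLN1 rose, and HIF1A did not pass after quantile normalization but passed as lower under median scaling (-1.82, adjusted p = 0.00159). EGLN1 (probe ILMN_1749892), the hydroxylase PHD2 and itself a HIF target, read 7.75, 7.72 and 7.73 in DMSO and 9.72, 9.13 and 9.73 in atrazine. It was 3.47-fold higher (log2 change 1.79, SE 0.17, adjusted p = 0.000107) and also passed under median scaling (0.68, adjusted p = 0.0206). EGLN3, the hydroxylase PHD3, read 5.42, 5.70 and 5.51 against 5.30, 5.11 and 5.24 and was above background on no atrazine array, too close to background for a fold. Its change of -0.33 passed (adjusted p = 0.0364), but the call was lost when DMSO replicate 2 (0.157), when DMSO replicate 3 (0.0897) and when atrazine replicate 3 (0.062) was left out, and it turned to 0.06, not past, under median scaling. HIF1A read 8.51, 8.92 and 8.70 in DMSO and 8.41, 7.06 and 8.42 in atrazine, a change of -0.74 (-1.58 to 0.09, adjusted p = 0.0994). The groups did not overlap, and without the low atrazine replicate 2 the change was -0.29 (adjusted p = 0.0652).

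Of 7 tested HIF targets outside glycolysis, 4 rose, 1 fell and 2 did not pass. Of all genes, 27.6% rose and 39.6% fell. Under median scaling 1 of the 7 rose and 3 fell (14.8% and 69.9% of all genes). VEGFA (probe ILMN_1803882), the main angiogenic growth factor, read 7.30, 6.54 and 7.21 in DMSO and 9.26, 9.07 and 9.07 in atrazine, 4.34-fold higher (log2 change 2.12, SE 0.20, adjusted p = 0.000112), and 1.14 under median scaling. P4HA2, a collagen prolyl 4-hydroxylase subunit, read 8.20, 8.38 and 8.42 against 9.27, 9.52 and 9.56, a rise of 1.11 (SE 0.12, adjusted p = 0.00019) that was -0.07, not past, under median scaling. ANKRD37, an ankyrin-repeat gene induced by HIF, read 8.34, 8.44 and 8.23 against 9.24, 9.17 and 9.19, a rise of 0.87 (SE 0.10, adjusted p = 0.000241) that was -0.31, not past, under median scaling. In these 3 genes all atrazine arrays lay above all DMSO arrays. NDRG1, a stress-responsive gene induced by hypoxia, rose by 0.70 (SE 0.14, adjusted p = 0.00291), but gave -0.50 and passed as lower under median scaling. ADM, which encodes the vasodilator adrenomedullin, gave 0.14 (-0.08 to 0.37), and -1.05, past, under median scaling.

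For KDM3A and P4HA1, atrazine replicate 2 read far from the other 2 atrazine arrays. KDM3A, a histone H3 lysine 9 demethylase induced by hypoxia, read 7.47, 7.61 and 7.39 in DMSO and 6.49, 4.96 and 6.48 in atrazine, and fell by 1.52 (log2; SE 0.39, adjusted p = 0.0105). It was above background on 2 of 3 atrazine arrays, and without replicate 2 the change was -1.06 (adjusted p = 1.08e-05). P4HA1, the other collagen prolyl 4-hydroxylase subunit, read 8.25, 8.39 and 8.30 against 9.30, 7.60 and 9.40, with a change of 0.45 (-0.58 to 1.49) that did not pass and turned to -0.68, not past, under median scaling. Replicates 1 and 3 lay above all DMSO arrays and replicate 2 below them. Without replicate 2 the change was 1.05 and passed (adjusted p = 9.19e-06). Within the atrazine group, replicate 2 differed from the mean of the other 2 by -1.75 for P4HA1, -1.53 for KDM3A, -1.43 for LDHB and -1.36 for HIF1A (log2), and by 0.40 for PDK2.

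A further probe gave a second reading for 7 of the genes. For VEGFA the dimmer probe moved with the brighter, from 5.89, 5.81 and 5.84 in DMSO to 8.26, 8.57 and 8.14 in atrazine (log2 change 2.48, SE 0.13, adjusted p = 1e-05 with every probe tested). ALDOA rose on both probes (0.71 and 0.65), and GAPDH passed on neither (-0.12 and 0.05). HIF1A gave -0.74 and -0.78, and the dimmer probe passed (adjusted p = 0.0454) while the brighter did not. The other 3 genes read differently on their probes. PKM, with its 25.4-fold rise on the brighter probe, read 7.71, 7.46 and 7.64 in DMSO and 7.95, 7.53 and 8.27 in atrazine on the other, a change of 0.31 (SE 0.19, adjusted p = 0.173). HK1 was at least 1.36-fold lower on its second probe, which was above background on no atrazine array, against 0.18, not past, on the brightest. The limma test on all readings of that second probe, those below background included, gave adjusted p = 0.0011. P4HA1 gave 0.45, not past, on the brighter and -0.88 on the dimmer (adjusted p = 0.000747), the latter above background on no atrazine array and too close to it for a fold. The platform annotation assigns the tested probes of PKM, P4HA1, HIF1A and ALDOA to different transcripts and those of HK1, VEGFA and GAPDH to the same one, and whether each reads its transcript alone was not tested. The PKM gene makes the M1 and M2 forms of pyruvate kinase by exclusive splicing. Another 5 of the 45 probes were above background on no array, namely the probe of SLC2A3, a further probe of HK1, a further probe of PFKL and the remaining 2 of ALDOA.

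**Figure D3:**
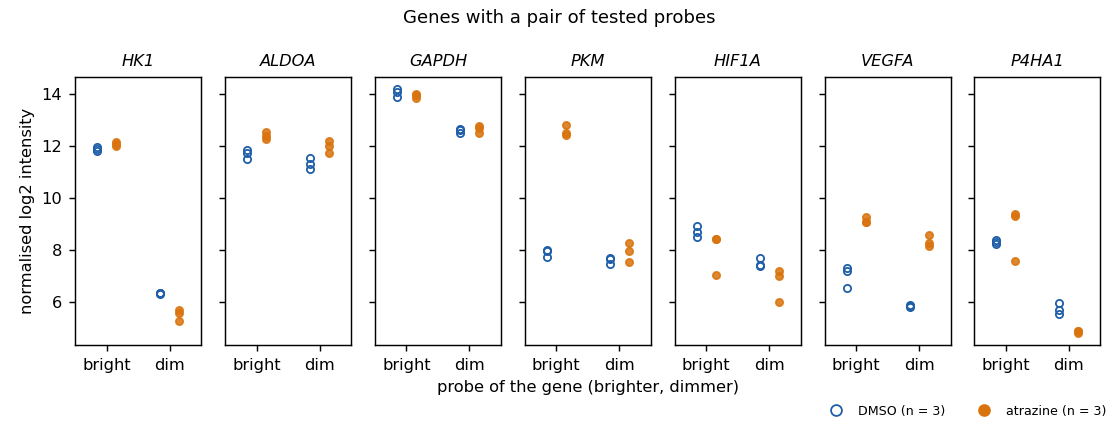
Normalised log2 intensity on each array for the 7 genes with a pair of tested probes, the brighter at left and the dimmer at right in each panel (DMSO open, atrazine filled, 3 arrays each). The groups separate on both probes in the same direction for VEGFA, ALDOA and HIF1A and in opposite directions for HK1. For PKM they separate on the brighter probe and overlap on the dimmer, for P4HA1 the reverse, and for GAPDH they overlap on both.

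Paralogs read on the same array share that array's scaling, so the change of one gene minus that of the other was compared for 11 pairs. In 8 pairs the within-array differences of the groups did not overlap, which gives the smallest p that 3 arrays against 3 allow (exact two-sided permutation p = 0.1, adjusted p = 0.138 over the 11 pairs), so none could pass. How often other gene pairs separate was not computed. Among single genes, 75.0% of all genes did not overlap, so separation alone does not set these pairs apart. The 8 include PDK1 with PDK2 and EGLN1 with EGLN3, for which no size is given because PDK1 and EGLN3 were above background on no atrazine array. In the other 6, PFKL changed by 1.18 more than PFKM on the log2 scale, and the change of ALDOA minus that of ALDOC was -1.10. PFKFB3 minus PFKFB4 gave 0.73, PFKL minus PFKP 0.67 and PFKM minus PFKP -0.52. These 5 kept their sign under median scaling. ENO1 minus ENO2 was -0.64 and turned to 0.48 under median scaling. The remaining 3 pairs overlapped, with HK1 minus HK2 at 0.20 (exact permutation p = 0.3), LDHA minus LDHB at 0.37 (0.7) and P4HA1 minus P4HA2 at -0.66 (0.3).

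**Figure D4:**
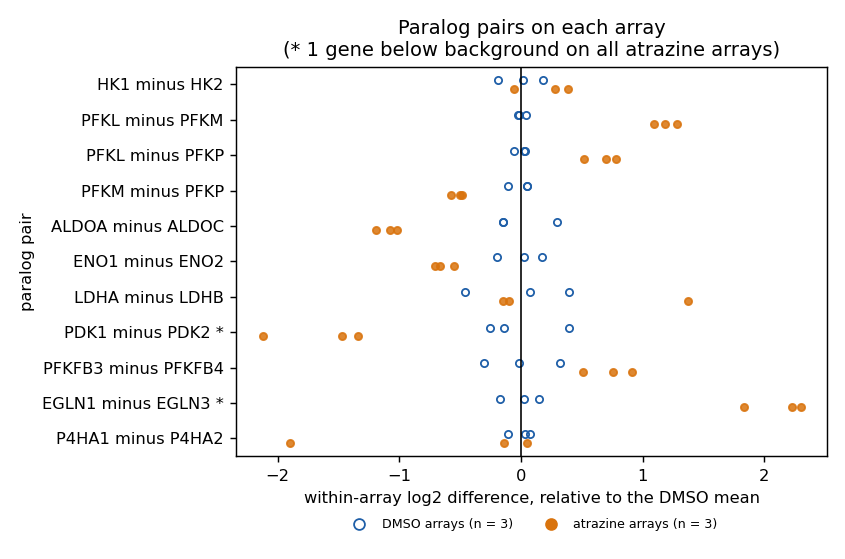
Within-array log2 difference between paralogs for 11 pairs, relative to the mean of the 3 DMSO arrays (DMSO open, atrazine filled, 3 arrays each). The groups separate in 8 pairs. In the 2 pairs with an asterisk, 1 gene was above background on no atrazine array, so their distance from zero is not a measured size. ENO1 minus ENO2, below zero here, turns sign under median scaling.

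Neighbouring genes of the same pathways, listed beside the 37, also passed in both directions. Of 24 tested further genes of glycolysis and pyruvate metabolism, 8 rose and 9 fell (27.6% and 39.6% of all genes did), with 2 rises and 19 falls under median scaling (14.8% and 69.9% of all genes), and a median change of -0.15 against -0.18 over all genes. GPD1, cytosolic glycerol-3-phosphate dehydrogenase, rose by 1.01 but was above background on 1 of 3 DMSO arrays. PCK2, mitochondrial phosphoenolpyruvate carboxykinase, rose by 0.80 and ENO3, muscle enolase, by 0.73 (-0.34, not past, and -0.36, past, under median scaling). SLC2A6, a glucose transporter family member of lysosomes, fell by 1.98 (SE 0.15, adjusted p = 4.1e-05) and was above background on 1 atrazine array. TIGAR, a phosphatase that lowers fructose 2,6-bisphosphate, and DLAT, the acetyltransferase subunit of pyruvate dehydrogenase, lacked a reading above background in atrazine, with bounds of at least 1.44-fold lower for TIGAR and 1.71-fold lower for DLAT. Of 7 tested genes of the pentose phosphate pathway, 1 rose, 1 fell and 5 did not pass (27.6% of all genes rose and 39.6% fell). The transketolase gene TKT rose by 0.69 (-0.27, not past, under median scaling), and the epimerase gene RPE fell by 0.43. Under median scaling 0 of the 7 rose and 6 fell (14.8% and 69.9% of all genes).

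Of 27 tested further genes known to be induced by hypoxia, 9 rose and 5 fell (27.6% and 39.6% of all genes did), with 3 rises and 19 falls under median scaling (14.8% and 69.9% of all genes). Their median change was 0.17 after quantile normalization. BHLHE40, a transcriptional repressor, rose by 1.91 (SE 0.23), DDIT4 by 1.85 (SE 0.10), and PLOD2, a collagen lysyl hydroxylase, by 1.19 (SE 0.10), and all 3 also passed under median scaling. TFRC, the transferrin receptor, fell by 1.87 (SE 0.14), KDM4C, a histone demethylase, by 1.10 (SE 0.11), and BNIP3, a mitophagy receptor and classic HIF target, by 0.79 (SE 0.12). Among 12 tested subunits and regulators of HIF, 2 rose and 7 fell (27.6% and 39.6% of all genes did). Under median scaling 2 rose and 10 fell (14.8% and 69.9% of all genes). The median change of these 12 was -0.53 after quantile normalization. HIF3A, an alpha subunit with inhibitory splice forms, was above background on 0 DMSO and 3 atrazine arrays and was at least 2.55-fold higher. The limma test on all its readings, those below background included, gave adjusted p = 0.00119. ARNT, the shared partner subunit, rose by 1.57. EPAS1, which encodes HIF-2 alpha, fell by 1.19 (SE 0.16, adjusted p = 0.000618), HIF1AN, the asparaginyl hydroxylase that blocks HIF transactivation, by 0.76 (SE 0.11), and VHL by 0.57 (SE 0.10).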

How the data were processed

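Per the labels' protocols, total RNA was isolated with TRIzol and then turned into biotinylated cRNA with an Ambion MessageAmp kit. The authors deposited signal intensity for 22184 probes on 6 arrays with a detection p-value beside each, as named per the file headers, and a table of processed intensities with the same median (111.5) on every array, used as an alternative. The sources used here do not give scanner software, chip or scan date, so no batch could be tested. The members and lists were chosen with earlier results of these data known.

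Intensities were corrected in R 4.3.3 with limma 3.58.1 (normexp, background inferred from detection p-values, offset 16) and quantile normalized on the log2 scale. Symbols come from the platform annotation, updated by gene ID (19695 of 19715 named probes matched; 0 carried several symbols and 2469 none). A gene was read from the probe of highest mean over the 6 arrays and was tested where every array of either group had a detection p under 0.05. Groups were compared with lmFit and eBayes, two-sided, with Benjamini-Hochberg adjustment over 11838 features, 10649 of them named genes. A gene below background on every array of a group has a bound, given as at least N-fold against the higher of the lowest detected value and its own. Such a gene entered the test through its other group alone, and its adjusted p tests all readings, not the bound. The number of arrays limits the precision. The procedure was tested on simulated data. All 37 members are accounted for; from each further list up to 3 genes past the threshold in each direction, by smallest adjusted p, are named. Alternatives changed background correction, scaling, detection filter, probe choice, variance model, array weights and replicate block, used the processed intensities, or left out each array. Promoter sequences are from RefSeq (GRCh38.p14).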

Additional observations from a re-analysis of the deposited data

How the results depend on the processing

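Scaling between arrays moved the directions more than any other choice tried. Of the 33 tested genes, 12 were higher and 8 lower in the reported setting, 4 and 21 under median scaling, and 1 (PKM) and 27 with no scaling. Median scaling turned HK1 (-0.62), GPI (-0.49), PFKL (-0.50), ALDOA (-0.12), PGK1 (-0.55), ENO2 (-0.63), PFKFB3 (-0.87), ADM (-1.05), EGLN3 (0.062), NDRG1 (-0.50), ANKRD37 (-0.31) and P4HA2 (-0.071), as well as P4HA1 (-0.68, not past in either) and ENO1 minus ENO2 (0.48). No scaling turned HK1 (-1.33), GPI (-1.21), PFKL (-1.21), ALDOA (-0.83), PGK1 (-1.26), ENO2 (-1.34), PDK2 (-0.68), PFKFB3 (-1.58), ADM (-1.76), EGLN1 (-0.028), NDRG1 (-1.22), ANKRD37 (-1.02), P4HA1 (-1.40) and P4HA2 (-0.78). These settings differ by a constant shift, so their reversals are not separate evidence, and the cause was not tested. Averaging the detected probes of each gene turned HK1 (-0.32) and P4HA1 (-0.21, not past), since it takes in a second probe, and cut PKM from 4.67 to 2.49. A stricter filter, detection p under 0.01 on all 6 arrays, left 27 of the genes, with 11 higher and 4 lower. It removed the lower genes SLC2A1, PDK1, EGLN3 and KDM3A, which were below background on some or all atrazine arrays. With it 3795 of 5911 features passed, against 7951 of 11838. The share of all features that were lower went from 39.6% to 30.9%, and the share higher from 27.6% to 33.3%. Leaving out each array in turn gave 12 to 13 higher and 7 to 9 lower genes, and 6813 to 8624 features past the threshold. Same-numbered arrays did not deviate together (correlations of -0.18, -0.45 and -0.29). Deviations from a group mean are tied to each other, so these values cannot show whether same-numbered arrays shared a culture or batch. The replicate block gave 12 higher and 7 lower genes and 6870 features. In those deviations from the group mean, no array of either group correlated best with its own number in the other. Without background correction SLC2A1 gave -0.94 in place of -1.56, and the processed intensities gave -1.16. Over 18 alternatives and 33 genes, 518 of 588 values kept direction and side of the threshold. Most alternatives keep quantile normalization, and several refit the same values, so those could not turn a direction. Under median scaling 13 of the 33 genes kept both, and with no scaling 8 did. Depth here is signal over background, which limits SLC2A1, PDK1 and EGLN3 to bounds or to no fold.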

Other observations

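The gap between the scalings was not alike across these genes. The log2 change under median scaling minus that under quantile normalization was 0.03 for GAPDH and 0.01 for ENO1, both near the top of the intensity range. It was -1.22 for PFKM, -1.21 for PFKFB4 and NDRG1 and -1.18 for P4HA2, with readings in the middle of the range, and 0.39 for EGLN3, near background. Statements that set a bright glycolytic gene against one of middle intensity therefore depend on the scaling, as for ENO1 against ENO2.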
